A study of Mus musculus with 12 samples.

Results

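The genes described here are 37 members of the machinery that charges tRNAs and makes amino acids, chosen by name: the 20 cytosolic aminoacyl-tRNA synthetases, 4 enzymes of serine and asparagine synthesis, 2 of proline synthesis, 2 of transsulfuration, 6 aminotransferases and related enzymes, and 3 stress-responsive regulators. All 37 had a probe on the arrays (70 probes in all) and all 37 passed the filter on dim probes, of 17134 genes that did. They were read in sorted splenic B cells of C57BL/6 mice in 4 groups of 3 arrays: LPS-stimulated cells of Ebf1fl/flRERTCre mice (LPS fl/fl), LPS-stimulated cells of Ebf1+/flRERTCre mice (LPS +/fl), and resting cells of each genotype (resting fl/fl and resting +/fl). Ebf1 is a transcription factor that B cells need to form and to keep their identity, and LPS is a bacterial ligand of TLR4 that drives B cells to grow and divide. All groups, the heterozygote controls included, carried the tamoxifen-inducible Cre and were given 3 mg tamoxifen citrate on 4 days, with analysis on day 10. The labels give neither the promoter behind the Cre nor the age or sex of the mice, neither dose nor time of LPS, and not which samples went through which of the pair of sort gates they name (B220+AA4.1-, with or without CD21lo). Resting +/fl replicate 3 and LPS +/fl replicate 1 carry sample names with the same number, so they may come from 1 source. The labels speak of triplicates without saying that each came from its own mouse, so the p-values reflect how far these samples scatter, and that scatter may be technical.

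An aminoacyl-tRNA synthetase joins 1 amino acid to its tRNAs, which the ribosome then reads. In animal cells several of the cytosolic synthetases are held in a large complex by scaffold proteins. When amino acids run short or the endoplasmic reticulum is under stress, phosphorylated eIF2α lets the transcription factor ATF4 be translated, and ATF4 then drives many of the genes described here, among them Asns, Psat1, Phgdh, Trib3, Chac1 and a number of synthetases. Activated lymphocytes also raise the same enzymes as they grow, with MYC and mTORC1 among the known drivers.

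ATF4 binds composite sites whose core holds the letters TGATGNAA, so the members' promoter windows were read for it (both strands, 250 bases before to 50 after each annotated start, RefSeq sequences on GRCm38.p6). Of the 37 members 29 were matched to the promoter table, Bcat1, Bcat2 and Psat1 with 2 windows each, and 10 of the 29 (34.5%) held the core, against 4.51% of all 27025 genes in the table. Among the members are known ATF4 targets, so this share describes how they were picked. The E-box CACGTG, a sequence bound by MYC and related factors, stood in the windows of 6 of the 29 (20.7%), against 8.09% of all genes. Aars, Iars and Tars held both motifs, and no match of the one overlapped a match of the other. Cars, Hars, Lars, Nars, Rars, Vars, Wars and Cth were not matched. The 250 bases before the start are shown whole for the 3 members with the core there with the largest LPS responses, a choice made after the values were seen, with the core in capitals, on the gene's strand.
Asns (chr6:7693210-7693459, minus strand): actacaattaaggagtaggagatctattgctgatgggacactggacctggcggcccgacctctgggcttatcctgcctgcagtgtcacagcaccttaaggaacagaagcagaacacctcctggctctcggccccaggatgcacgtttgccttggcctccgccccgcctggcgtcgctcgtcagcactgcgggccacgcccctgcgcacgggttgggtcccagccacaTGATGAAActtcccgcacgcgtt
Pycr1 (chr11:120643749-120643998, minus strand): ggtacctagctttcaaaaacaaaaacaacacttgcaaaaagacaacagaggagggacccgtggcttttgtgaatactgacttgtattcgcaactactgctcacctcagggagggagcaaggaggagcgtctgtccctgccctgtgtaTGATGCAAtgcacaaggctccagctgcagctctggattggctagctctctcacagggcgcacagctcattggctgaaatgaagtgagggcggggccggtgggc
Chac1 (chr2:119350992-119351241, plus strand): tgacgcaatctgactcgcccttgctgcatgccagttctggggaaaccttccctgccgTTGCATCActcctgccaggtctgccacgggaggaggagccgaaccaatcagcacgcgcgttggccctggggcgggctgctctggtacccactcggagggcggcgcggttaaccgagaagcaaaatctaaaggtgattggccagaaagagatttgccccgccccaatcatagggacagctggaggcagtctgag

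The core of Asns begins 23 bases before the start, that of Pycr1 103 bases and that of Chac1 193 bases before it. Further matches are shown as 30 bases with the core in the middle, so that its flanks and orientation can be compared. Aars holds another match, not shown, that begins 112 bases before the start and also reads on the opposite strand. The Aars match shown lies after the start.
Aars (chr8:111033840-111033869, plus strand): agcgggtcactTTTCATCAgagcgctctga
Gars (chr6:55037960-55037989, plus strand): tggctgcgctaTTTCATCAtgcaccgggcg
Got1 (chr19:43524689-43524718, minus strand): cattgcattggTTGCATCAtacaagcctcc
Iars (chr13:49682126-49682155, plus strand): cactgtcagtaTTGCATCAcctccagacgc
Tars (chr15:11399655-11399684, minus strand): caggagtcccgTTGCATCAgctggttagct
Trib3 (chr2:152344028-152344057, minus strand): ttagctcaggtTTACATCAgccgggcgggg
Yars (chr4:129189895-129189924, plus strand): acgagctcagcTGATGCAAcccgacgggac
In Aars, Chac1, Gars, Got1, Iars, Tars and Trib3 the core reads on the opposite strand to the gene, as TTNCATCA. A match is a string of letters in a window and was not measured as a bound site in these cells.

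Signal is given as log2 of the background-subtracted Cy3 intensity minus the 75th percentile of its array, so that 0 is the level of that percentile and 1 unit is a 2-fold difference. The brightest probe stood for each gene, and levels are compared between groups for 1 gene and never between genes. The share of spots well above background was 54.4% to 61.4% on 11 arrays and 83.2% on LPS fl/fl replicate 2. Differences were tested with limma over all 17134 genes with Benjamini-Hochberg adjustment, and "rose", "fell", "higher" and "lower" passed an adjusted p of 0.05 unless a value is given in place of the call. The B cell markers Cd79a, Cd79b, Ms4a1, Cd22, Pax5, Cd74 and Cd37 were each well above background on all 12 arrays. At its brighter probe Ebf1 itself was higher in resting fl/fl cells than in resting +/fl cells (log2 difference 0.62 ± 0.15, SE, adjusted p = 0.0344). At its dimmer probe it read -5.02 to -4.21 in resting fl/fl cells and -3.16 to -2.18 in resting +/fl cells. The labels do not give the deleted exons, so neither probe checks the genotype, and fl/fl and +/fl are the labels' genotypes throughout. In samples of this kind, fewer cells of a type and less RNA per cell cannot be told apart.

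LPS raised the signal of most of the members in both genotypes. In fl/fl cells 30 of 37 members rose and 2 fell, where 55.6% of all genes were called (29.9% higher and 25.7% lower). In +/fl cells 31 rose and 0 fell, where 57.7% of all genes were called (30.4% higher and 27.4% lower), and after quantile normalization or with the deposited values 30 rose and 2, Qars and Vars, fell. Without the 2 +/fl arrays that share a sample number 29 rose and 0 fell in +/fl cells, and 30 rose and 1 fell in fl/fl cells. The median log2 difference of the members was 1.53 in fl/fl cells and 1.58 in +/fl cells, while over all genes tested it was 0.06 in fl/fl cells and -0.03 in +/fl cells. The arrays of LPS and resting cells did not overlap for 32 members in fl/fl cells, 30 higher and 2 lower, where 62.1% of all genes did not overlap (33.5% higher and 28.7% lower). In +/fl cells 31 members were higher and 1 lower without overlap, where 65.7% of all genes did not overlap (33.5% higher and 32.2% lower). In 28 of the 37 all 6 LPS arrays lay above all 6 resting arrays, as they did for 24.1% of all genes. The 9 others were Bcat2, Cbs, Ddit4, Glul, Got2, Psph, Qars, Sars and Vars. Markers of other cells moved as well: all 7 NK cell genes fell in both genotypes, with sums of 4.54 to 8.52 in LPS fl/fl cells and 2.47 to 3.21 in LPS +/fl cells, against 24.3 to 30.3 in resting fl/fl cells and 22.7 to 50.8 in resting +/fl cells. Of 14 measured markers of monocytes, macrophages and neutrophils 4 rose and 5 fell in fl/fl cells, and 0 rose and 9 fell in +/fl cells. Of the 7 B cell markers named above, 5 fell and 0 rose in fl/fl cells (median -2.16) and 6 fell and 0 rose in +/fl cells (median -1.50), with sums of 287 to 336 in LPS fl/fl cells and 320 to 336 in LPS +/fl cells, against 777 to 922 in resting fl/fl cells and 743 to 968 in resting +/fl cells. Of 12 proliferation markers 3 rose and 1 fell in fl/fl cells (median 0.42), and 3 rose and 0 fell in +/fl cells (median -0.205). The part of these genes in the member responses was not tested.

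**Figure D1:**
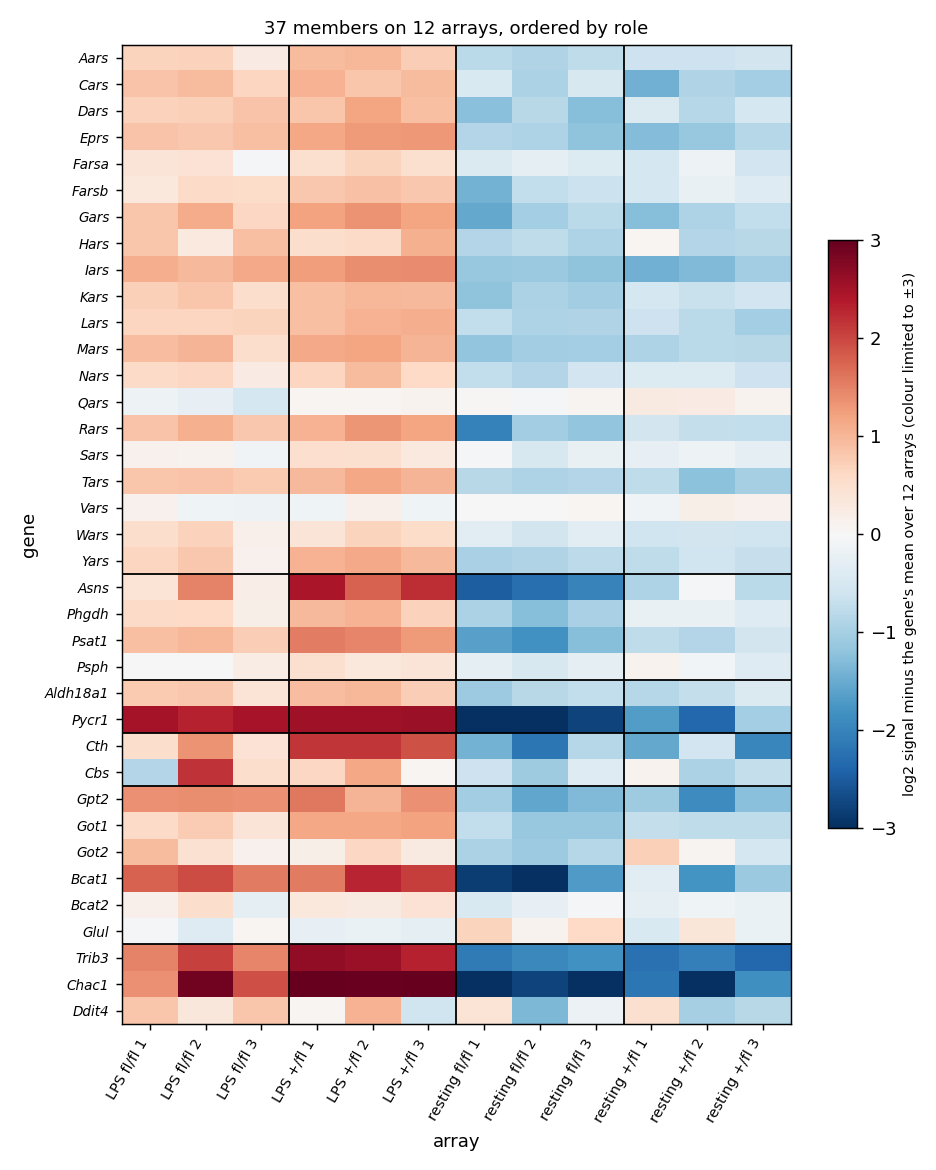
Signal of the 37 members (rows, by role) on the 12 arrays (columns), as log2 signal minus the gene's own mean over the 12 arrays, from blue (lower) to red (higher), with colour limited to 3 units either way. The LPS arrays on the left are red and the resting arrays on the right blue in most rows, and Qars, Vars, Glul and Ddit4 stay pale or mixed.

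Among the 20 cytosolic synthetases 17 rose and 1 fell in fl/fl cells, and 18 rose and 0 fell in +/fl cells. Their median log2 difference was 1.48 in fl/fl cells and 1.56 in +/fl cells. Iars, which charges isoleucine tRNAs, read 4.79, 4.69 and 4.84 in LPS fl/fl cells and 4.97, 5.09 and 5.12 in LPS +/fl cells, against 2.56, 2.58 and 2.5 in resting fl/fl cells and 2.26, 2.38 and 2.67 in resting +/fl cells. Every LPS array lay more than 2 units above its resting counterparts' group mean, and the log2 difference was 2.23 ± 0.12 (SE) in fl/fl cells (adjusted p = 2.6e-07) and 2.62 ± 0.12 (SE) in +/fl cells (adjusted p = 1.01e-07).

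Eprs joins the glutamate and the proline synthetase in 1 protein. It read 3.85, 3.80 and 3.89 in LPS fl/fl cells and 4.14, 4.27 and 4.28 in LPS +/fl cells, against 2.11, 2.05 and 1.77 in resting fl/fl cells and 1.68, 1.85 and 2.12 in resting +/fl cells. The LPS +/fl arrays were the highest and did not overlap with the LPS fl/fl arrays, and the LPS response was 1.87 ± 0.13 (SE) in fl/fl cells (adjusted p = 1.55e-06) and 2.35 ± 0.13 (SE) in +/fl cells (adjusted p = 3.56e-07). Gars, the glycine synthetase, also serves mitochondria. It read 0.96, 1.24 and 0.76 in LPS fl/fl cells and 1.32, 1.46 and 1.3 in LPS +/fl cells, against -1.40, -0.89 and -0.69 in resting fl/fl cells and -1.14, -0.80 and -0.62 in resting +/fl cells. LPS and resting arrays were well apart, with a response of 1.98 ± 0.21 (SE) in fl/fl cells (adjusted p = 2.13e-05) and 2.22 ± 0.21 (SE) in +/fl cells (adjusted p = 8.73e-06).

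Rars charges arginine tRNAs. Its signal was 0.22, 0.43 and 0.16 in LPS fl/fl cells and 0.41, 0.68 and 0.54 in LPS +/fl cells, against -2.65, -1.67 and -1.81 in resting fl/fl cells and -1.18, -1.36 and -1.38 in resting +/fl cells. The lowest array was resting fl/fl replicate 1, and the response was 2.31 ± 0.23 (SE) in fl/fl cells (adjusted p = 1.35e-05) and 1.85 ± 0.23 (SE) in +/fl cells (adjusted p = 5.88e-05). Mars, the methionine synthetase, read 3.65, 3.74 and 3.25 in LPS fl/fl cells and 3.86, 3.90 and 3.75 in LPS +/fl cells, against 1.54, 1.68 and 1.70 in resting fl/fl cells and 1.80, 1.92 and 1.89 in resting +/fl cells. The 4 groups did not overlap, though the highest LPS fl/fl array (3.74) lay next to the lowest LPS +/fl array (3.75). Mars rose by 1.91 ± 0.13 (SE) in fl/fl cells (adjusted p = 1.22e-06) and 1.97 ± 0.13 (SE) in +/fl cells (adjusted p = 9.02e-07). Tars, the threonine synthetase, read 5.20, 5.23 and 5.16 in LPS fl/fl cells and 5.35, 5.53 and 5.38 in LPS +/fl cells, against 3.54, 3.43 and 3.50 in resting fl/fl cells and 3.61, 3.15 and 3.37 in resting +/fl cells. Resting arrays of both genotypes overlapped, LPS arrays lay above them, and the response was 1.71 ± 0.12 (SE) in fl/fl cells (adjusted p = 1.43e-06) and 2.04 ± 0.12 (SE) in +/fl cells (adjusted p = 4.32e-07).

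Lars, which charges leucine tRNAs and is also known as a leucine sensor for mTORC1, read 5.39, 5.39 and 5.42 in LPS fl/fl cells and 5.66, 5.80 and 5.83 in LPS +/fl cells, against 4.0, 3.82 and 3.85 in resting fl/fl cells and 4.12, 3.95 and 3.73 in resting +/fl cells. It rose by 1.51 ± 0.11 (SE) in fl/fl cells (adjusted p = 2.25e-06) and 1.83 ± 0.11 (SE) in +/fl cells (adjusted p = 6.3e-07). The LPS arrays of the genotypes did not overlap. Kars, the lysine synthetase, which also serves mitochondria, read 4.78, 4.91 and 4.61 in LPS fl/fl cells and 4.97, 5.06 and 5.05 in LPS +/fl cells, against 2.88, 3.11 and 3.04 in resting fl/fl cells and 3.54, 3.41 and 3.49 in resting +/fl cells. It rose by 1.76 ± 0.11 (SE) in fl/fl cells (adjusted p = 6.32e-07) and 1.55 ± 0.11 (SE) in +/fl cells (adjusted p = 1.21e-06). Here the resting arrays of the genotypes did not overlap either, with fl/fl below +/fl.

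Dars, the aspartate synthetase, read 3.70, 3.73 and 3.87 in LPS fl/fl cells and 3.84, 4.20 and 3.91 in LPS +/fl cells, against 1.76, 2.18 and 1.74 in resting fl/fl cells and 2.57, 2.16 and 2.48 in resting +/fl cells. LPS and resting arrays were apart in both genotypes, and the response was 1.87 ± 0.16 (SE) in fl/fl cells (adjusted p = 5.38e-06) and 1.58 ± 0.16 (SE) in +/fl cells (adjusted p = 1.61e-05). Cars, the cysteine synthetase, read 3.32, 3.41 and 3.12 in LPS fl/fl cells and 3.52, 3.30 and 3.41 in LPS +/fl cells, against 2.0, 1.53 and 1.98 in resting fl/fl cells and 1.02, 1.57 and 1.44 in resting +/fl cells. Its resting +/fl replicate 1 was the lowest array, and the response was 1.45 ± 0.17 (SE) in fl/fl cells (adjusted p = 6.11e-05) and 2.06 ± 0.17 (SE) in +/fl cells (adjusted p = 4.68e-06).

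The remaining synthetases that rose in both genotypes were Aars, Farsa, Farsb, Hars, Nars, Wars and Yars, for alanine, phenylalanine (the 2 subunits of 1 enzyme), histidine, asparagine, tryptophan and tyrosine. Their log2 differences ran from 0.62 (Farsa) to 1.53 (Hars) in fl/fl cells and from 0.96 (Farsa) to 1.74 (Yars) in +/fl cells. Sars, the serine synthetase, rose by 0.65 ± 0.13 (SE), adjusted p = 0.0014, in +/fl cells. In fl/fl cells its difference was 0.30 ± 0.13 (SE), adjusted p = 0.0725, and it passed without resting fl/fl replicate 1 (adjusted p = 0.0273) or LPS fl/fl replicate 3 (adjusted p = 0.0492). The call in +/fl cells was lost after quantile normalization (0.22, adjusted p = 0.135) and with the deposited values (0.25, adjusted p = 0.094).

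Qars and Vars, the glutamine and valine synthetases, did not rise at their brightest probes. Qars read 4.43, 4.34 and 4.07 in LPS fl/fl cells and 4.64, 4.66 and 4.68 in LPS +/fl cells, against 4.62, 4.57 and 4.68 in resting fl/fl cells and 4.86, 4.83 and 4.69 in resting +/fl cells. The LPS fl/fl arrays were the lowest and overlapped with no other group. Qars fell in fl/fl cells by 0.34 ± 0.11 (SE, adjusted p = 0.022), and its difference was -0.13 ± 0.11 (SE), adjusted p = 0.317, in +/fl cells. That direction rests on the probe: a dimmer probe of Qars gave 0.53 in fl/fl cells (adjusted p over probes = 0.0204) and a further one gave -0.11, and the mean over its probes gave 0.03. The call was also lost without resting fl/fl replicate 3 (adjusted p = 0.0673) or LPS fl/fl replicate 3 (adjusted p = 0.0823). Vars read 3.52, 3.28 and 3.26 in LPS fl/fl cells and 3.27, 3.55 and 3.27 in LPS +/fl cells, against 3.41, 3.39 and 3.46 in resting fl/fl cells and 3.30, 3.58 and 3.53 in resting +/fl cells. All 4 groups overlapped, and its log2 differences were -0.07 in fl/fl cells, with a 95% interval of -0.34 to 0.21, and -0.11 in +/fl cells, with an interval of -0.38 to 0.16. In +/fl cells both fell under 2 other scalings: Qars gave -0.56 (adjusted p = 0.00114) and Vars -0.41 (adjusted p = 0.012) after quantile normalization, and Qars gave -0.54 (adjusted p = 0.00172) and Vars -0.41 (adjusted p = 0.0116) with the deposited values.

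Dars, Eprs, Iars, Kars, Lars, Mars, Qars and Rars belong to the multi-synthetase complex, a grouping that was taken up after the values were seen. Of these 8, 7 rose and 1 fell in fl/fl cells, with a median of 1.87, while the 12 synthetases outside it had 10 higher and 0 lower, with a median of 1.39. In +/fl cells the complex had 7 higher and 0 lower and a median of 1.84, beside 11 higher, 0 lower and a median of 1.24 outside it. The complex's scaffolds Aimp1, Aimp2 and Eef1e1 all rose in both genotypes, by 0.95, 2.93 and 2.55 in fl/fl cells and by 0.81, 2.78 and 2.72 in +/fl cells. The difference between synthetases inside and outside the complex was not tested.

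**Figure D2:**
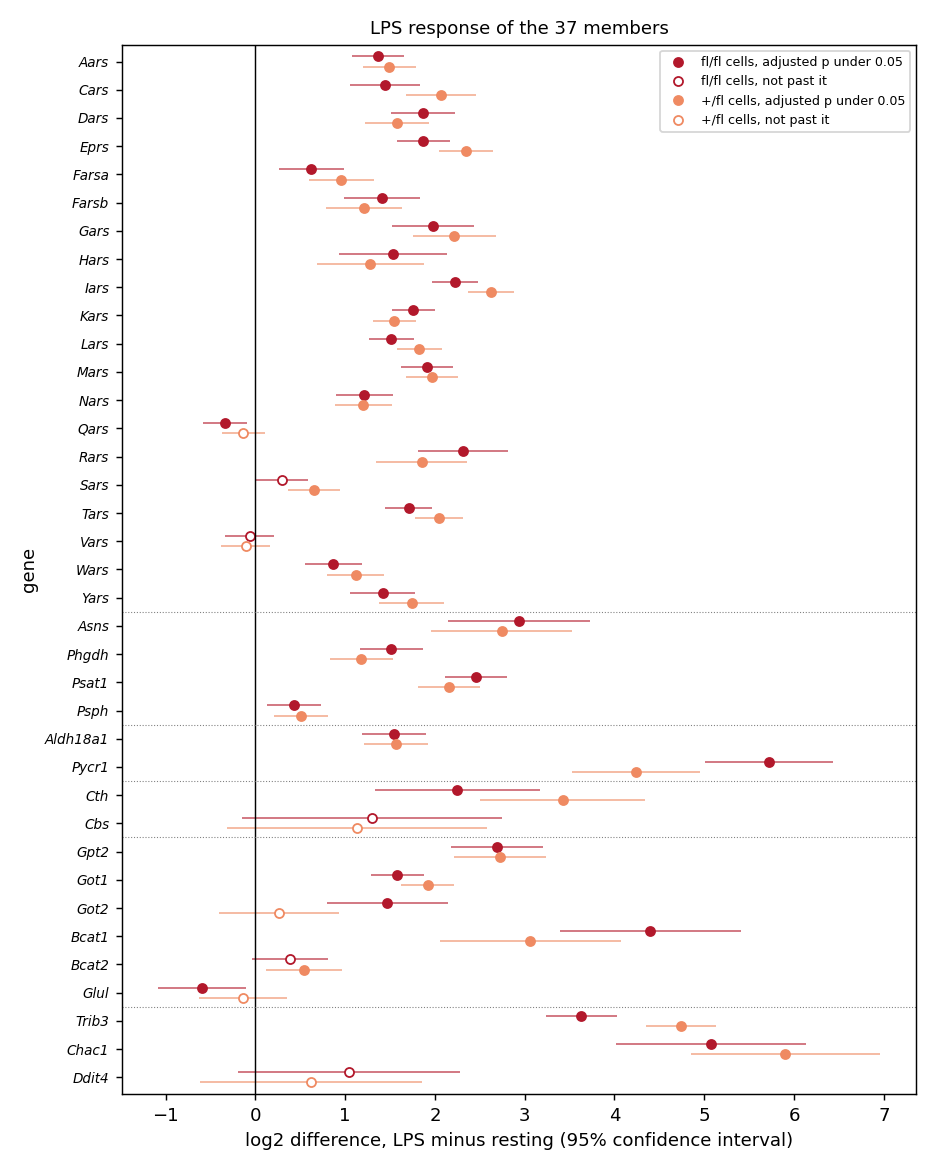
Log2 difference of each member between LPS and resting cells (horizontal axis) in fl/fl cells (dark red) and +/fl cells (orange), with 95% confidence intervals and filled points past an adjusted p of 0.05. Most points lie to the right of 0, and Qars, Vars and Glul lie at or left of it. Farthest right are Pycr1, Chac1 and Bcat1 in fl/fl cells and Chac1, Trib3 and Pycr1 in +/fl cells.

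All 4 enzymes of serine and asparagine synthesis rose in both genotypes. Asns makes asparagine from aspartate with glutamine as the nitrogen donor, and read 1.48, 2.55 and 1.27 in LPS fl/fl cells and 3.52, 2.84 and 3.30 in LPS +/fl cells, against -1.40, -1.19 and -0.92 in resting fl/fl cells and 0.16, 1.01 and 0.27 in resting +/fl cells. Within each state the fl/fl arrays lay below the +/fl arrays without overlap, and LPS raised Asns by 2.94 ± 0.35 (SE) in fl/fl cells (adjusted p = 5.72e-05) and 2.74 ± 0.35 (SE) in +/fl cells (adjusted p = 8.4e-05). Phgdh catalyses the first step from glycolysis into serine. Its signal was 5.59, 5.63 and 5.19 in LPS fl/fl cells and 5.99, 6.07 and 5.71 in LPS +/fl cells, against 4.06, 3.75 and 4.05 in resting fl/fl cells and 4.80, 4.81 and 4.62 in resting +/fl cells. The 4 groups did not overlap, and the response was 1.51 ± 0.15 (SE) in fl/fl cells (adjusted p = 1.93e-05) and 1.18 ± 0.15 (SE) in +/fl cells (adjusted p = 9.98e-05).

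Psat1, the second enzyme of the serine route, read 3.13, 3.23 and 2.98 in LPS fl/fl cells and 3.76, 3.70 and 3.51 in LPS +/fl cells, against 0.60, 0.43 and 0.94 in resting fl/fl cells and 1.47, 1.35 and 1.68 in resting +/fl cells. Again no group overlapped with another, and Psat1 rose by 2.46 ± 0.15 (SE) in fl/fl cells (adjusted p = 7.06e-07) and 2.16 ± 0.15 (SE) in +/fl cells (adjusted p = 1.39e-06). Psph, which removes the phosphate in the last step, read 2.15, 2.14 and 2.35 in LPS fl/fl cells and 2.62, 2.45 and 2.52 in LPS +/fl cells, against 1.84, 1.66 and 1.86 in resting fl/fl cells and 2.25, 2.07 and 1.75 in resting +/fl cells. LPS arrays lay above the resting arrays of their own genotype by a small margin, with a response of 0.43 ± 0.14 (SE) in fl/fl cells (adjusted p = 0.0213) and 0.51 ± 0.14 (SE) in +/fl cells (adjusted p = 0.0086). The call in fl/fl cells was lost without resting fl/fl replicate 2 (adjusted p = 0.0723) or LPS fl/fl replicate 3 (adjusted p = 0.077). It was also lost when arrays were scaled by their median (0.15, adjusted p = 0.778). The call in +/fl cells was lost after quantile normalization (adjusted p = 0.0791), with the deposited values (adjusted p = 0.0734), with scaling by the array median (adjusted p = 0.0839) and without the 2 +/fl arrays that share a sample number (adjusted p = 0.0818).

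Both proline enzymes rose. Aldh18a1 makes the intermediate from glutamate, and read 0.86, 0.88 and 0.48 in LPS fl/fl cells and 1.01, 1.09 and 0.82 in LPS +/fl cells, against -1.01, -0.75 and -0.66 in resting fl/fl cells and -0.78, -0.63 and -0.36 in resting +/fl cells. The LPS arrays were all above the resting ones, and the response was 1.55 ± 0.16 (SE) in fl/fl cells (adjusted p = 1.99e-05) and 1.56 ± 0.16 (SE) in +/fl cells (adjusted p = 1.71e-05). Pycr1, which closes the route to proline in mitochondria, read -0.28, -0.47 and -0.32 in LPS fl/fl cells and -0.24, -0.23 and -0.19 in LPS +/fl cells, against -6.54, -6.15 and -5.55 in resting fl/fl cells and -4.46, -5.14 and -3.80 in resting +/fl cells. It was well above background on 0 of 3 resting fl/fl arrays and 2 of 3 resting +/fl arrays, and on every LPS array. It was therefore, in fl/fl cells, at least 28.9-fold higher after LPS (adjusted p = 4e-07), and in +/fl cells the fitted log2 difference was 4.25 ± 0.32 (SE), adjusted p = 2.13e-06.

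In transsulfuration, the route from methionine to cysteine, Cth rose. This enzyme releases cysteine from cystathionine, and read -3.27, -2.46 and -3.36 in LPS fl/fl cells and -1.66, -1.66 and -1.89 in LPS +/fl cells, against -5.21, -5.96 and -4.67 in resting fl/fl cells and -5.34, -4.37 and -5.76 in resting +/fl cells. Only 1 of 3 resting arrays of each genotype was well above background, and the LPS arrays were all above it, the +/fl ones higher than the fl/fl ones. The response was 2.25 ± 0.41 (SE) in fl/fl cells (adjusted p = 0.000964) and 3.42 ± 0.41 (SE) in +/fl cells (adjusted p = 5.18e-05). With normexp on the repaired background the Cth call in fl/fl cells was lost (log2 difference 0.18, adjusted p = 0.371). Cbs, the step before it, read -7.01, -3.96 and -5.59 in LPS fl/fl cells and -5.49, -4.96 and -6.06 in LPS +/fl cells, against -6.75, -7.20 and -6.51 in resting fl/fl cells and -6.01, -7.07 and -6.84 in resting +/fl cells. It was well above background on 1 of 3 LPS fl/fl arrays, 2 of 3 LPS +/fl arrays and on 0 of the 6 resting ones, so it has no measured fold, and it passed in neither genotype (adjusted p = 0.117 in fl/fl cells and 0.163 in +/fl cells). Without LPS fl/fl replicate 1 it passed in fl/fl cells (adjusted p = 0.00959), and without LPS fl/fl replicate 2 in +/fl cells (adjusted p = 0.0468). In +/fl cells Cbs also passed after quantile normalization (1.51, adjusted p = 0.0117) and with scaling by the array median (1.41, adjusted p = 0.018). The same held with the deposited values (1.61, adjusted p = 0.0153) and with only the 6 arrays compared (adjusted p = 0.0438).

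Of the 6 aminotransferases and related enzymes, 4 rose and 1 fell in fl/fl cells, and 4 rose and 0 fell in +/fl cells. Gpt2, the mitochondrial alanine aminotransferase, read -0.28, -0.27 and -0.29 in LPS fl/fl cells and -0.08, -0.63 and -0.29 in LPS +/fl cells, against -2.69, -3.22 and -3.0 in resting fl/fl cells and -2.72, -3.56 and -2.90 in resting +/fl cells. Genotypes overlapped in both states, and it rose by 2.69 ± 0.23 (SE) in fl/fl cells (adjusted p = 5.14e-06) and 2.73 ± 0.23 (SE) in +/fl cells (adjusted p = 4.29e-06). Got1, the cytosolic aspartate aminotransferase, read 3.46, 3.63 and 3.26 in LPS fl/fl cells and 4.04, 4.03 and 4.07 in LPS +/fl cells, against 2.14, 1.73 and 1.74 in resting fl/fl cells and 2.17, 2.10 and 2.11 in resting +/fl cells. Its LPS +/fl arrays lay within 0.04 of each other and above the LPS fl/fl arrays, and the response was 1.58 ± 0.13 (SE) in fl/fl cells (adjusted p = 4.63e-06) and 1.92 ± 0.13 (SE) in +/fl cells (adjusted p = 1.15e-06).

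Got2, the mitochondrial counterpart, read 4.72, 4.23 and 3.90 in LPS fl/fl cells and 3.96, 4.40 and 4.05 in LPS +/fl cells, against 2.83, 2.70 and 2.92 in resting fl/fl cells and 4.50, 3.87 and 3.26 in resting +/fl cells. Its resting fl/fl arrays were the lowest and the resting +/fl arrays overlapped with the LPS arrays. The response was 1.47 ± 0.30 (SE) in fl/fl cells (adjusted p = 0.002) and 0.26 ± 0.30 (SE) in +/fl cells (adjusted p = 0.486), so that it rose in fl/fl cells, and the difference between the responses did not pass (interaction 1.21 ± 0.42 (SE), adjusted p = 0.168). Bcat1, the cytosolic branched-chain aminotransferase, read -0.38, -0.20 and -0.58 in LPS fl/fl cells and -0.59, 0.15 and -0.07 in LPS +/fl cells, against -4.99, -5.53 and -3.84 in resting fl/fl cells and -2.49, -3.95 and -3.27 in resting +/fl cells. It was well above background on 1 of 3 resting fl/fl arrays and on every other array, and rose by 4.40 ± 0.45 (SE) in fl/fl cells (adjusted p = 1.95e-05) and 3.06 ± 0.45 (SE) in +/fl cells (adjusted p = 0.000219). A dimmer Bcat1 probe gave 2.70 in fl/fl cells (adjusted p over probes = 0.00834) and 1.60 in +/fl cells (adjusted p over probes = 0.0777).

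Bcat2, the mitochondrial form, read -1.11, -0.73 and -1.56 in LPS fl/fl cells and -0.94, -1.0 and -0.84 in LPS +/fl cells, against -1.72, -1.51 and -1.31 in resting fl/fl cells and -1.55, -1.40 and -1.47 in resting +/fl cells. In fl/fl cells LPS and resting arrays overlapped and the difference was 0.38 ± 0.19 (SE), adjusted p = 0.114, which passed without LPS fl/fl replicate 3 (adjusted p = 0.0113). In +/fl cells they did not overlap, and Bcat2 rose by 0.55 ± 0.19 (SE), adjusted p = 0.0316, a call that was lost when any 1 of the 6 +/fl arrays was left out (adjusted p = 0.0517 to 0.0894). Its other 2 probes gave -0.56 (adjusted p over probes = 0.0355) and 0.10 in fl/fl cells, so that the sign there rests on the probe, and the mean over probes gave 0.36 in +/fl cells (adjusted p = 0.189). Glul, which makes glutamine from glutamate and ammonia, moved the other way. It read 1.78, 1.44 and 1.88 in LPS fl/fl cells and 1.58, 1.63 and 1.56 in LPS +/fl cells, against 2.49, 1.94 and 2.44 in resting fl/fl cells and 1.38, 2.19 and 1.62 in resting +/fl cells. In fl/fl cells every LPS array lay below every resting array, and Glul fell by 0.59 ± 0.22 (SE, adjusted p = 0.043). In +/fl cells the difference was -0.14 ± 0.22 (SE), adjusted p = 0.618. The fall in fl/fl cells still passed without resting fl/fl replicate 2, resting +/fl replicate 1 or 2, or LPS fl/fl replicate 3, and was lost without any 1 of the other 8 arrays (adjusted p = 0.0543 to 0.133), and a dimmer probe of Glul gave -0.02 there.

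Of the 3 stress-responsive regulators 2 rose in both genotypes, Chac1 and Trib3. Chac1 breaks down glutathione and is a classical ATF4 target. It read -0.24, 1.27 and 0.30 in LPS fl/fl cells and 2.34, 1.33 and 1.74 in LPS +/fl cells, against -4.76, -4.39 and -4.74 in resting fl/fl cells and -3.79, -5.06 and -3.45 in resting +/fl cells. It was well above background on 2 of 3 resting arrays of each genotype. All LPS arrays lay above all resting arrays, with a response of 5.08 ± 0.47 (SE) in fl/fl cells (adjusted p = 9.94e-06) and 5.90 ± 0.47 (SE) in +/fl cells (adjusted p = 3.27e-06), and by log2 difference Chac1 ranked 31st of 17134 genes in fl/fl cells and 9th in +/fl cells. Trib3, a pseudokinase induced by ATF4 that feeds back on it, read 0.21, 0.77 and 0.19 in LPS fl/fl cells and 1.37, 1.32 and 1.04 in LPS +/fl cells, against -3.41, -3.22 and -3.10 in resting fl/fl cells and -3.52, -3.34 and -3.63 in resting +/fl cells. LPS +/fl arrays were the highest without overlap, and Trib3 rose by 3.63 ± 0.17 (SE) in fl/fl cells (adjusted p = 1.76e-07) and 4.74 ± 0.17 (SE) in +/fl cells (adjusted p = 5.27e-08). Ddit4, an inhibitor of mTORC1 induced by stress and by glucocorticoids, read 5.03, 4.54 and 5.03 in LPS fl/fl cells and 4.26, 5.26 and 3.6 in LPS +/fl cells, against 4.61, 2.85 and 4.02 in resting fl/fl cells and 4.68, 3.21 and 3.37 in resting +/fl cells. All 4 groups overlapped, and its difference was 1.04 ± 0.55 (SE) in fl/fl cells (adjusted p = 0.14) and 0.62 ± 0.55 (SE) in +/fl cells (adjusted p = 0.367).

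**Figure D3:**
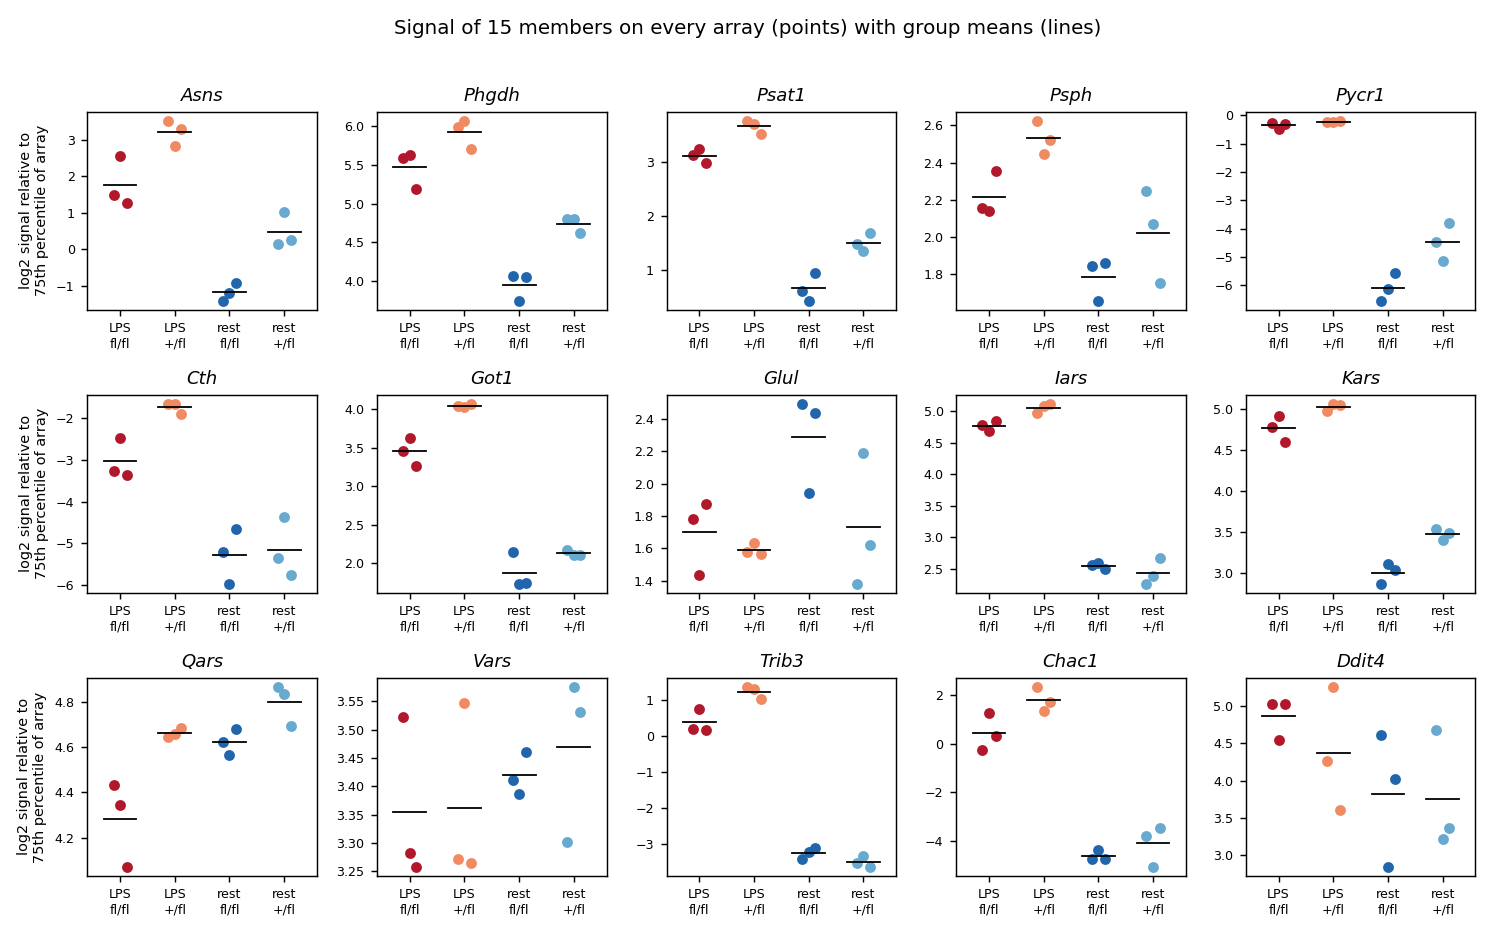
Log2 signal relative to the 75th percentile of the array (vertical axis, its own scale in each panel) for 15 members, with 1 point per array and a line at the mean of each group. Asns, Phgdh, Psat1, Pycr1, Trib3 and Chac1 separate LPS from resting cells widely, Vars and Ddit4 do not, and the fl/fl points of Asns, Phgdh and Psat1 lie below the +/fl points in both states.

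Set beside the TGATGNAA core in their windows, as a description of the 29 matched genes, all 10 members with it rose in both genotypes, with a median log2 difference of 2.10 in fl/fl cells and 2.42 in +/fl cells. Of the 19 without it 13 rose and 2 fell in fl/fl cells (median 1.47), and 14 rose and 0 fell in +/fl cells (median 1.18). Psat1 and Phgdh, which have no match in the windows read, rose as well. Over all genes 29.9% rose in fl/fl cells and 30.4% in +/fl cells. Known ATF4 targets are among the members picked, and the difference between members with and without the core was not tested.

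The wider set of genes around the members moved less evenly. Beside each list here and below stand the shares of all genes. In fl/fl cells 29.9% of all genes were called higher and 25.7% lower, and in +/fl cells 30.4% higher and 27.4% lower. Of 17 regulators and targets of the stress response that acts through ATF4, 9 rose and 3 fell in fl/fl cells (median 0.54), and 7 rose and 1 fell in +/fl cells (median 0.22). Atf4 itself rose in fl/fl cells, with a log2 difference of 1.34 (adjusted p = 9.01e-04), and in +/fl cells, with one of 1.14 (adjusted p = 0.00227). Atf3, a stress-induced transcription factor, gave 5.22 in fl/fl cells (adjusted p = 3.75e-05) and 2.05 in +/fl cells (adjusted p = 0.0129). Sesn2, an amino acid sensor and stress target, rose by 3.35 in fl/fl cells and 2.83 in +/fl cells, and Eif2s1, which encodes eIF2α, by 1.99 in fl/fl cells and 2.05 in +/fl cells (adjusted p at most 1.72e-05 in each). Eif2ak3, which encodes the kinase PERK, fell by 1.41 in fl/fl cells and fell by 1.03 in +/fl cells. Ddit3, which encodes CHOP, gave 0.07 in fl/fl cells (adjusted p = 0.824) and 0.03 in +/fl cells (adjusted p = 0.922) and passed in neither.

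Of 18 genes for mitochondrial synthetases, the related Tarsl2 among them, 10 rose and 3 fell in fl/fl cells (median 0.44), and 11 rose and 2 fell in +/fl cells (median 0.51). Yars2 (1.51 in fl/fl cells and 1.86 in +/fl cells), Nars2 (1.29 in fl/fl cells and 1.55 in +/fl cells) and Rars2 (1.29 in fl/fl cells and 1.19 in +/fl cells) rose most, and Mars2 fell by 1.29 in fl/fl cells and fell by 0.51 in +/fl cells. One-carbon, methionine and glycine enzymes, which use serine, rose in 8 of 10 measured members and fell in 1 in fl/fl cells, and rose in 8 of 10 and fell in 0 in +/fl cells, with medians of 2.12 in fl/fl cells and 2.22 in +/fl cells. Shmt2 (2.74 in fl/fl cells and 2.72 in +/fl cells) and Mthfd1l (2.17 in fl/fl cells and 2.19 in +/fl cells) were among those with the smallest p. Odc1, the first enzyme of polyamine synthesis, rose by 2.85 in fl/fl cells and 2.29 in +/fl cells, and Bckdha, which degrades branched-chain amino acids, fell by 1.09 in fl/fl cells and fell by 1.11 in +/fl cells.

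Of 5 subunits of elongation factors 3 rose and 0 fell in fl/fl cells, and 2 rose and 2 fell in +/fl cells. Among 8 measured genes linked to MYC and mTORC1, 3 rose and 1 fell in fl/fl cells, and 5 rose and 0 fell in +/fl cells. Myc rose by 3.36 in fl/fl cells and 2.84 in +/fl cells (adjusted p = 2.11e-07 in fl/fl cells and 4.50e-07 in +/fl cells). Wars is an interferon-stimulated gene in human cells, so interferon-stimulated genes were read beside it: 4 of 11 rose and 0 fell in fl/fl cells (median 1.24), and 2 rose and 5 fell in +/fl cells (median -1.11). Wars rose by 0.87 ± 0.14 (SE) in fl/fl cells (adjusted p = 0.000487) and 1.12 ± 0.14 (SE) in +/fl cells (adjusted p = 8.08e-05).

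In resting cells the fl/fl genotype had less signal than +/fl for 5 of the 37 members and more for 0, where 8.81% of all genes were called (4.63% higher and 4.18% lower). The 5 were Asns, Phgdh, Psat1, Pycr1 and Kars, so that 3 of the 4 serine and asparagine enzymes were lower. Asns read -1.40, -1.19 and -0.92 in resting fl/fl cells, against 0.16, 1.01 and 0.27 in resting +/fl cells. The groups were more than 1 unit apart at their nearest arrays, and the log2 difference was -1.65 ± 0.35 (SE), adjusted p = 0.0239, a 3.13-fold lower signal.

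Psat1 read 0.60, 0.43 and 0.94 in resting fl/fl cells and 1.47, 1.35 and 1.68 in resting +/fl cells, a difference of -0.85 ± 0.15 (SE), adjusted p = 0.0133. Phgdh read 4.06, 3.75 and 4.05 in resting fl/fl cells and 4.80, 4.81 and 4.62 in resting +/fl cells, a difference of -0.79 ± 0.15 (SE), adjusted p = 0.0181. Neither gene's groups overlapped, and the other 2 probes of Phgdh gave -1.12 and -1.07 (adjusted p over probes = 0.0211 and 0.0178). Kars read 2.88, 3.11 and 3.04 in resting fl/fl cells and 3.54, 3.41 and 3.49 in resting +/fl cells, without overlap (-0.47 ± 0.11 (SE), adjusted p = 0.0292). Pycr1 was at least 1.67-fold lower (adjusted p = 0.0185), since 0 of 3 resting fl/fl arrays and 2 of 3 resting +/fl arrays were well above background, and with normexp on the repaired background the call was lost (adjusted p = 0.327).

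Next to these stood Got2 (-1.06 ± 0.30 (SE), adjusted p = 0.057), Bcat1 (-1.55 ± 0.45 (SE), adjusted p = 0.061), Rars (-0.73 ± 0.23 (SE), adjusted p = 0.0703) and Dars (-0.51 ± 0.16 (SE), adjusted p = 0.0741), which did not pass. Over all 37 members the median log2 difference was -0.21, beside 0.05 over all genes, and 27 of 37 were below 0. Of 19 members with over 1 probe, 9 had all probes on the same side of 0 in this comparison. Values did not overlap in 12 members, all lower in fl/fl, where 31.2% of all genes had non-overlapping values and 12.6% were lower without overlap. The synthetases had 1 of 20 lower and 0 higher and a median of -0.16. Psph, Aldh18a1, Got1, Trib3 and Chac1 gave -0.24, -0.21, -0.25, 0.25 and -0.53 and did not pass (adjusted p = 0.29, 0.419, 0.242, 0.382 and 0.51).

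Other genes moved with these 5. Of the one-carbon genes 4 were lower in resting fl/fl cells: Shmt1 (-1.59), Gcat (-1.51), Mthfd1 (-0.75) and Shmt2 (-0.43), as were Myc (-0.89), Odc1 (-0.95) and Atf3 (-2.93), while Atf4 gave -0.46 (adjusted p = 0.243). Of 12 proliferation markers 7 were lower and 0 higher, and their summed signal ran from 54.3 to 61.1 times the 75th percentile in resting fl/fl cells and from 77.0 to 91.7 in resting +/fl cells. Of 14 measured markers of monocytes, macrophages and neutrophils 1 was lower and 0 higher, with Ly6g not measured. Of these 14, 0 were above 0 (median -1.075), and 6 were lower without overlap, as were 12.6% of all genes. Their sums were 27.5 to 48.2 in resting fl/fl cells and 39.9 to 173 in resting +/fl cells. Above 0 were 0 of 9 T cell genes (median -0.46) and 1 of 11 interferon-stimulated genes (median -1.09). So were 4 of 7 NK cell genes (median 0.08) and 6 of 6 platelet genes (median 1.06). Erythroid markers summed to 8.22 to 98.7 in resting fl/fl cells and 35.2 to 75.8 in resting +/fl cells. Of the 7 B cell markers named above 1, Cd79a, was lower and 0 were higher, with a median of -0.16. The part of these cells and genes in the member differences was not tested. A fit without resting +/fl replicates 1 and 3 leaves 1 resting +/fl array, so only its log2 differences are given. They were -2.18 for Asns, -0.85 for Phgdh, -0.69 for Psat1 and -0.40 for Kars. The fitted value of Pycr1, which is not a measured fold, was -0.94, beside -1.61 in the main fit.

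The resting calls stood near the threshold. Without the 2 +/fl arrays that share a sample number 0 of 37 members passed, with adjusted p of 0.0669 (Phgdh) to 0.102 (Kars) for the 5. The log2 differences were then -1.75 for Asns, -0.85 for Phgdh, -0.76 for Psat1 and -0.47 for Kars, and the fitted one of Pycr1 was -1.28. Leaving out 1 array left 2 to 8 members called: without resting fl/fl replicate 1 Asns, Pycr1 and Kars no longer passed (adjusted p = 0.0853, 0.0673 and 0.0956), and without resting +/fl replicate 1 Phgdh, Pycr1 and Kars did not (adjusted p = 0.0581, 0.0565 and 0.0818). Without resting fl/fl replicate 2 Asns did not pass (adjusted p = 0.052), and without resting fl/fl replicate 3, resting +/fl replicate 3 or LPS fl/fl replicate 1 Kars did not (adjusted p = 0.0566, 0.067 and 0.0512). Without resting +/fl replicate 2 there were 8 calls, Dars and Bcat1 lower and Glul higher in addition. Within the 3 slides, each with 1 array of each resting genotype, all 5 were lower in fl/fl on every slide. This had to follow, because the arrays of the resting genotypes did not overlap for any of the 5, so it adds no support.

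**Figure D4:**
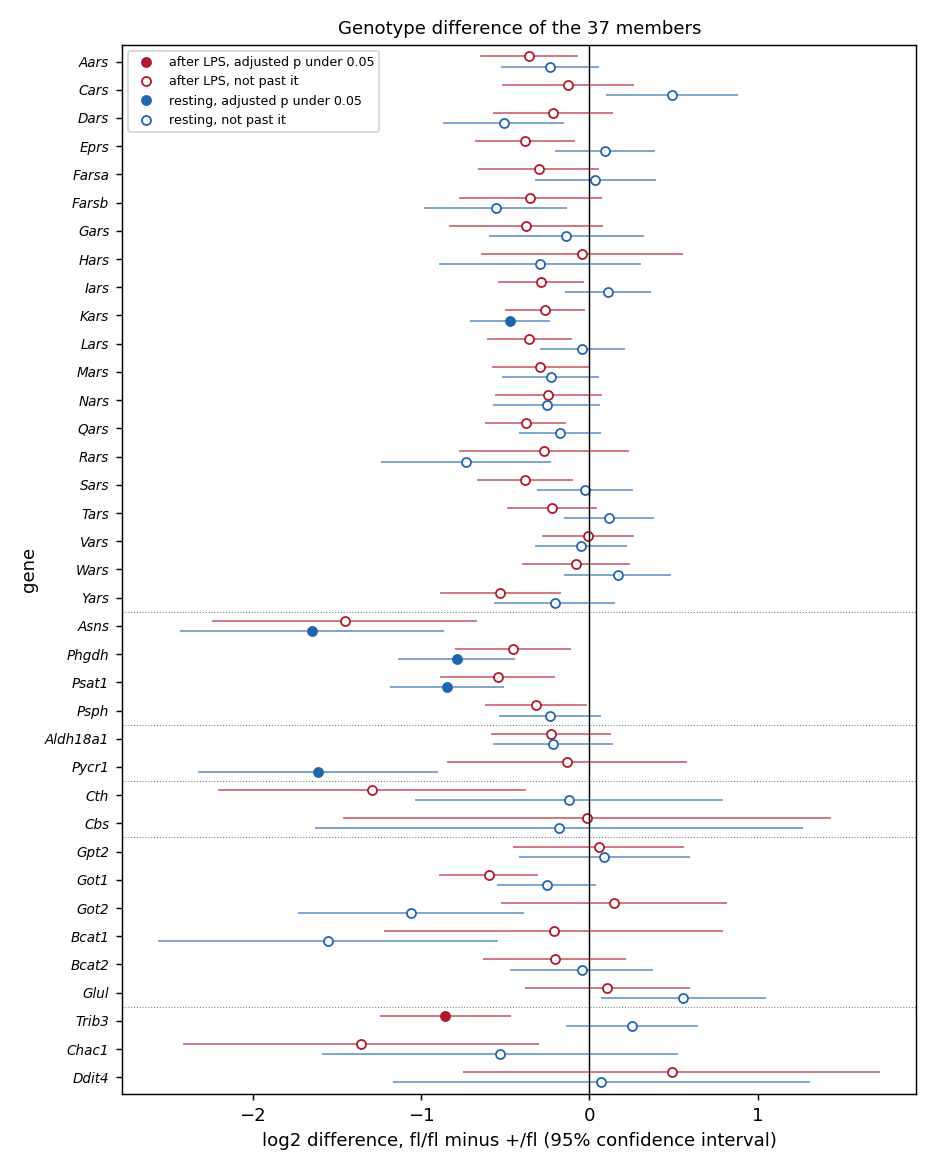
Log2 difference of each member between fl/fl and +/fl cells (horizontal axis) after LPS (dark red) and in resting cells (blue), with 95% confidence intervals and filled points past an adjusted p of 0.05. All 20 synthetases lie at or left of 0 after LPS, many with intervals that reach 0, and the filled points are Kars, Asns, Phgdh, Psat1 and Pycr1 in resting cells and Trib3 after LPS.

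After LPS 1 member, Trib3, was lower in fl/fl cells and 0 were higher, where 1.69% of all genes were called (0.887% higher and 0.805% lower). Trib3 read 0.21, 0.77 and 0.19 in LPS fl/fl cells, against 1.37, 1.32 and 1.04 in LPS +/fl cells. The groups did not overlap, and the log2 difference was -0.86 ± 0.17 (SE), adjusted p = 0.0466. The call was lost in 24 of 31 alternatives, among them without the 2 +/fl arrays that share a sample number (-0.79, adjusted p = 0.145) and without each array other than LPS fl/fl replicate 2 (adjusted p = 0.051 to 0.149 over those 11), and a dimmer Trib3 probe gave -0.52 (adjusted p over probes = 0.45).

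The remaining members with a wide difference did not pass. Asns read 1.48, 2.55 and 1.27 in LPS fl/fl cells and 3.52, 2.84 and 3.30 in LPS +/fl cells, and LPS fl/fl replicate 2, the array with the most spots above background, was the highest of its group. The difference was -1.46 ± 0.35 (SE), adjusted p = 0.0708, and without that array it was -1.85 (adjusted p = 0.0231). Got1 gave -0.60 ± 0.13 (SE), adjusted p = 0.0562. Psat1 gave -0.55 ± 0.15 (SE), adjusted p = 0.0952. Chac1 read -0.24, 1.27 and 0.30 in LPS fl/fl cells and 2.34, 1.33 and 1.74 in LPS +/fl cells (-1.36 ± 0.47 (SE), adjusted p = 0.149). Cth read -3.27, -2.46 and -3.36 in LPS fl/fl cells and -1.66, -1.66 and -1.89 in LPS +/fl cells (-1.29 ± 0.41 (SE), adjusted p = 0.126). In Chac1 and Cth, as in Asns, all 3 LPS fl/fl arrays lay below all 3 LPS +/fl arrays.

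The small differences ran one way over the members. Of the 37, 33 were below 0, including all 20 synthetases, whose median was -0.29 with a range of -0.53 (Yars) to -0.01 (Vars). The median of all genes was 0.04. Values did not overlap in 22 of the 37, all lower in fl/fl, and in 13 of the 20 synthetases, where 33.4% of all genes had non-overlapping values and 18.1% were lower without overlap. In the limma fit 0 of the 20 synthetases passed, and 9 had an unadjusted p under 0.05, all lower in fl/fl, where 21.5% of all genes had one (11.5% higher and 9.96% lower). Qars (0.101), Yars (0.114), Lars (0.126), Sars (0.139) and Eprs (0.146) had the smallest adjusted p, with differences of -0.38, -0.53, -0.36, -0.38 and -0.38.

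This shift depends on the scaling. The synthetases' median was -0.17 after quantile normalization, with 17 of 20 below 0, -0.81 when arrays were scaled by their median, with all genes then at -0.49, and 0.14 with plain normexp background correction, with 3 of 20 below 0. Plain normexp took in a few spots of very high local background, up to 20 on an array, and with those repaired the median was -0.28, with 19 of 20 below 0. On slide 2, which holds 1 LPS array of each genotype, the median over members was -0.37 and that over all genes -0.01. Of 19 members with over 1 probe, 10 had all probes on the same side of 0. Proliferation markers were lower in 2 of 12 and higher in 0 in LPS fl/fl cells, with sums of 80.1 to 86.0 in LPS fl/fl cells and 107 to 112 in LPS +/fl cells, whose part was not tested. Most markers of other cells read above 0 in LPS fl/fl against LPS +/fl cells. Above 0 were 7 of 7 NK cell genes (median 1.14, 6 without overlap) and 8 of 9 T cell genes (median 0.62, 5 without overlap). So were 13 of 14 measured markers of monocytes, macrophages and neutrophils (median 0.67, 6 without overlap). Of these 3 lists 0 genes passed, and 15.3% of all genes were higher without overlap. The dendritic cell gene Siglech passed (1.64, adjusted p = 0.0469). Of 7 measured erythroid genes 1 was above 0. Of the 7 B cell markers 1, Cd79a, was lower (-1.25, adjusted p = 0.0131) and 0 were higher. The part of these cells in the members' differences was not tested. One-carbon enzymes had Gcat lower (-1.75, adjusted p = 0.0131). Interferon-stimulated genes, which hold no member, were all 11 above 0 (median 1.08), and 0 passed.

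**Figure D5:**
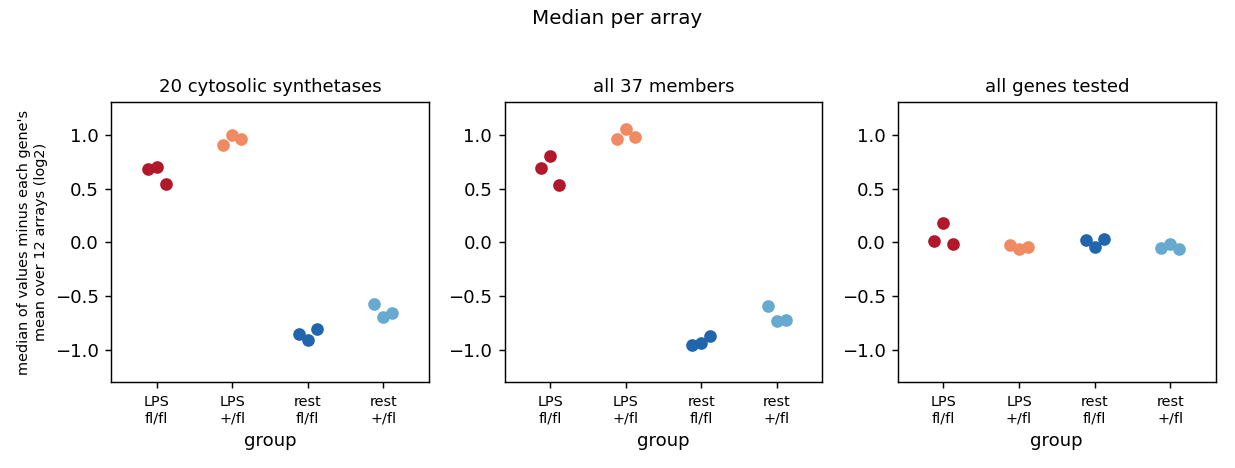
Median over genes of the log2 signal minus each gene's mean over the 12 arrays, 1 point per array, for the 20 synthetases, the 37 members and all genes tested. The members' medians are 0.53 to 0.81 in LPS fl/fl, 0.96 to 1.05 in LPS +/fl, -0.95 to -0.87 in resting fl/fl and -0.73 to -0.59 in resting +/fl, while those of all genes lie between -0.07 and 0.18, the highest being LPS fl/fl replicate 2.

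Seen array by array, the members' median was higher on each LPS +/fl array than on any LPS fl/fl array, and higher on each resting +/fl array than on any resting fl/fl array. In 24 of the 37 the group means stood in the order LPS +/fl, LPS fl/fl, resting +/fl, resting fl/fl, from high to low. The highest group was LPS +/fl in 31, LPS fl/fl in Gpt2, Got2 and Ddit4, resting fl/fl in Glul and resting +/fl in Qars and Vars. Neighbours in that order were often within the spread: the resting genotypes did not overlap in 12 members and the LPS genotypes in 22.

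Whether LPS acted differently on the members in the 2 genotypes was tested as an interaction. It passed for 0 of 37 in the limma fit, where 0.175% of all genes passed, and 6 of the 37 had an unadjusted p under 0.05, 2 with a larger and 4 with a smaller response in fl/fl cells, where 20.3% of all genes had one (8.81% larger and 11.5% smaller). Trib3 came nearest, with a response smaller in fl/fl cells by 1.11 ± 0.25 on the log2 scale (adjusted p = 0.0815). Got2 had the next smallest adjusted p among members measured in all 4 groups, and Pycr1, counted among the larger ones, has no measured interaction because its signal in resting fl/fl cells is only a bound. For Asns the interaction was 0.19 ± 0.50 (SE), adjusted p = 0.851, with a 95% interval of -0.92 to 1.3. The lower level of Asns in fl/fl cells thus stood at -1.65 in resting cells and -1.46 after LPS.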

How the data were processed

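RNA of 12 samples (4 groups of 3) was read on 1-colour Agilent mouse arrays, 12 arrays on 3 slides of 4. The authors deposited scanner output, background-subtracted Cy3 intensity per spot, from Feature Extraction 9.5.3.1 per the file headers (9.1 per the submitters' processing notes), and a value table of the same arrays, used as an alternative. Each intensity was put on the log2 scale and the 75th percentile of its array was subtracted. Spots with outlier flags (87 probes) and probes well above background on fewer than 3 of 12 arrays were left out. Each gene kept its brightest probe. Probes were named through RefSeq accessions or symbols, otherwise by the files' names. Group means over all 12 arrays were fitted with limma 3.58.1 in R 4.3.3 and 5 contrasts were tested with Benjamini-Hochberg adjustment over 17134 genes. The fit was tested on simulated data.

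The members and lists were chosen with earlier results of these data known. By the rule for named genes, values on every array were given, per comparison, for up to 8 called members of each role with the largest log2 difference, and for Asns, Phgdh, Trib3, Chac1 and Ddit4 in any case. Of the other lists up to 4 genes with the smallest p were named. Psph, Qars, Vars, Cbs and the other members shown beyond the rule, and Atf4, Ddit3, Shmt1, Gcat, Mthfd1 and Aimp1 among the lists, were named after their values were seen. The replicate numbers do not pair the samples: of 18 same-numbered pairs, 2 had a correlation of deviations over 0.1 (range -0.145 to 0.126). Resting +/fl replicate 3 and LPS +/fl replicate 1, whose names hold 1 common number, gave 0.133. Alternatives changed background correction, normalization, filter, probe rule, slide or replicate block, array weights, variance model, threshold and the arrays used. The number of arrays limits the precision. A few items are not reported here.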

Additional observations from a re-analysis of the deposited data

How the results depend on the processing

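Both LPS responses kept their counts under most alternatives. In +/fl cells, where 31 members were called, plain normexp background correction left 14, and calls over all genes went from 9890 to 1484. Leaving out 1 array gave 30 to 32 members. In fl/fl cells, where 32 were called, plain normexp gave 22 and scaling by the array median 27. Calls over all genes there, 9524 in the main fit, were 2390 with plain normexp and 5990 with array-median scaling. Leaving out 1 array also gave 30 to 32 members in fl/fl cells. Single values turned in sign in fl/fl cells: Qars gave 0.097 with normexp and 0.028 as the mean over probes, and Cth gave -0.507 with normexp. Of the 5 members lower in resting fl/fl cells, 0 passed with normexp, when only the 6 arrays compared were fitted, without the 2 +/fl arrays that share a sample number, or at an adjusted p of 0.01. Scaling by the array median left 1, no filter on dim probes left 2, a 2-fold minimum left 2, and eBayes with trend and robust settings gave 9. Leaving out 1 array gave 2 to 8. Calls over all genes moved too, from 1510 to 281 with array-median scaling and 421 with no filter on dim probes. They were 461 with the 2-fold minimum, 2227 with trend and robust settings, 0 with normexp and 134 with only the 6 arrays compared. After LPS, where 1 member was called, 0 passed with normexp, quantile normalization, no filter, the deposited values, the slide as a fixed block (with or without LPS fl/fl replicate 2), only the 6 arrays compared, the mean over probes, without the 2 +/fl arrays that share a number, without resting +/fl replicates 1 and 3, at an adjusted p of 0.01, or with a 2-fold minimum. Array-median scaling and normexp with repaired background gave 4 each, the filter on all 12 arrays and the trend and robust fit 3 each, and array weights 12. Leaving out 1 array gave 0 to 2. Calls over all genes, 290 in the main fit, were 200 with array-median scaling and 411 with the repaired normexp. They were 531 with the filter on all 12 arrays, 642 with the trend and robust fit and 2734 with array weights. The interaction, with 0 called, gave 1 with the filter on all 12 arrays, with trend and robust settings and with array weights, and 0 without any 1 array. Over all genes these settings called 238, 424 and 326, in that order, against 30 in the main fit. With the replicate number as a block, 31 members were called in each LPS response, 4 in resting cells, 0 after LPS and 0 in the interaction. The causes were not tested. With 3 arrays per group, and resting Pycr1, Cth and Cbs near background, small differences could not be resolved. Leaving LPS fl/fl replicate 2 out of the blocked fit was chosen after seeing the data.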
